A study of Drosophila melanogaster with 12 samples.

Results

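The 5 genes described here, ey, bt, CG11093, CG31999 and CG32017, lie on chromosome 4 of Drosophila melanogaster. They were selected on their read counts in these libraries, as genes of that chromosome whose RNA differed between SHMT mutant and wild-type embryos in both collections of the study. They make up 5 of the 14161 genes counted and 5 of the 79 genes counted on chromosome 4. Because the genotype contrasts chose them, their genotype values are given as descriptions with no test. ey, bt, CG11093 and CG31999 were lower in SHMT embryos in both collections, to between 8.15 and 22.9% of the wild-type mean, and CG32017 was 20.3-fold and 30.6-fold higher.

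Chromosome 4 is the small dot chromosome of the fly, rich in repeats and in heterochromatin, whose genes are nevertheless transcribed, and the protein Pof binds it along its length. ey (eyeless) encodes a Pax6 transcription factor, a selector gene of the eye, and its paralogue toy lies on the same chromosome. bt (bent) encodes Projectin, a giant titin-like protein of muscle. CG11093, now named fuss, encodes a protein of the Ski and Sno family, which is linked to the Smad proteins of TGF-β signalling. No role is given here for CG31999 and CG32017.

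SHMT (CG3011) encodes serine hydroxymethyl transferase, an enzyme of one-carbon metabolism, and the study compared RNA of SHMT mutant and wild-type embryos to ask whether transcription differed before and at the blastoderm stage. The groups were embryos from females with SHMT[X238] germline clones and wild-type OregonR embryos, each from a collection labelled 0–1 hr (preblastoderm) and one labelled 1.5–2.5 hr (late blastoderm), with 3 libraries of whole embryos in each of the 4 groups. The germline clones were induced with a heat-shock recombinase on marked, recombined chromosomes, while OregonR is a separate stock, so the allele, the genetic background and the clone procedure cannot be told apart in any genotype difference below. Replicates are called biological in the study, but nothing says that they came from separate parents, so the p-values measure the spread between these libraries. The libraries are of whole embryos, syncytial before cellularization in the study's account. Fewer parts of the embryo expressing a gene and less RNA throughout cannot be told apart, nor can maternal and zygotic RNA.

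Between 21045142 and 35106444 reads per library were counted in genes, and levels are given in CPM, a gene's reads relative to all counted reads of its library, with library sizes scaled by the trimmed mean of M values (TMM). The RNA of the SHMT gene does not check the genotype, since the allele is a stop codon. It ranged over 5.57 to 7.37 CPM in SHMT and 3.38 to 4.67 CPM in wild type in the 0–1 hr collection, and over 91.5 to 123 CPM in SHMT and 77.5 to 88.1 CPM in wild type in the 1.5–2.5 hr collection. The stage labels ran against the marker RNAs in both genotypes. The summed level of 15 early zygotic RNAs was 153 to 235 CPM in the SHMT 1.5–2.5 hr libraries, against 3814 to 7045 CPM in the SHMT 0–1 hr libraries, and 170 to 254 CPM in the wild-type 1.5–2.5 hr libraries, against 7089 to 10419 CPM in the wild-type 0–1 hr libraries. That of 15 maternal RNAs was 6163 to 6213 CPM in the 1.5–2.5 hr against 2339 to 3175 CPM in the 0–1 hr libraries of SHMT, and 6530 to 6731 CPM in the 1.5–2.5 hr against 2204 to 2647 CPM in the 0–1 hr libraries of wild type. The study itself reported a rise of zygotic and a fall of maternal RNAs from 0–1 to 1.5–2.5 hr, the reverse of these sums. No library was moved, and the groups keep their labels, so a collection named below is a label and not a known age. If the labels were exchanged, every difference between labels below turns its sign. The genotype differences then keep their sign, but each value given for a collection belongs to the other collection.

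**Figure D1:**
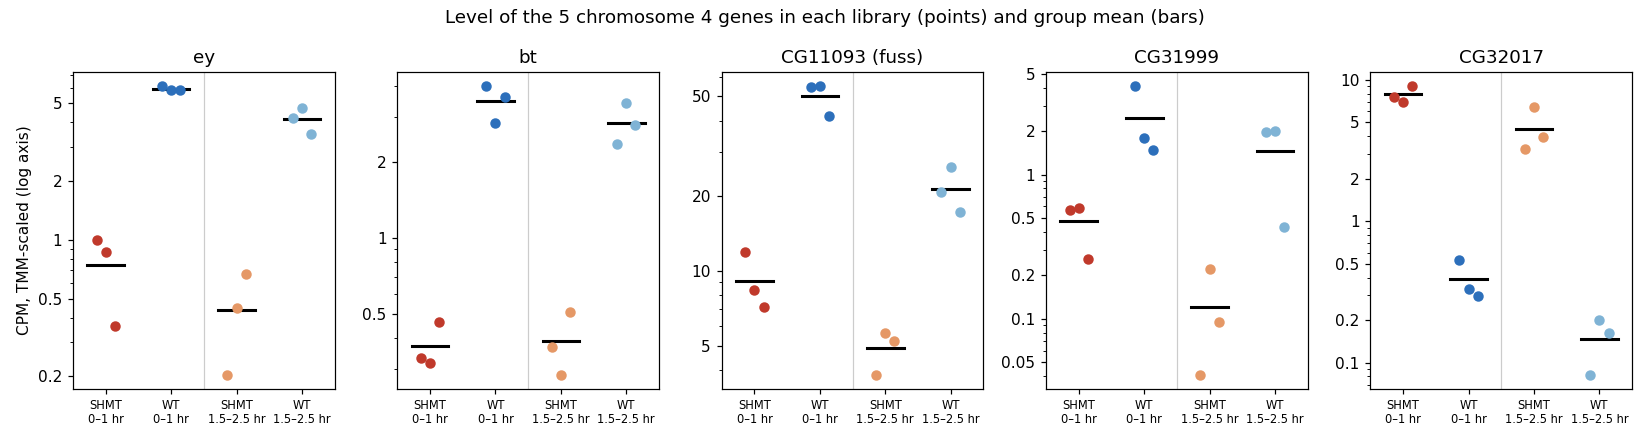
Level of each of the 5 genes in CPM (log axis, a scale of its own in each panel) in the SHMT and wild-type libraries at each stage label. Each point is a library and each bar the mean of 3. ey, bt, CG11093 and CG31999 lie lower in SHMT and CG32017 lies higher, with no overlap between genotypes at either label.

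ey was low in SHMT embryos at both labels. Its level was 1.00, 0.862 and 0.361 CPM in the SHMT libraries, against 6.11, 5.86 and 5.81 CPM in the wild-type libraries in the 0–1 hr collection. In the 1.5–2.5 hr libraries ey stood at 0.204, 0.445 and 0.668 CPM in SHMT, against 4.20, 4.73 and 3.47 CPM in wild type. The wild-type libraries lay close together and every SHMT library lay below all of them. The log2 difference of SHMT from wild type was −2.98 (SE 0.35) in the 0–1 hr collection and −3.18 (SE 0.35) in the 1.5–2.5 hr collection, which left 12.5 and 10.6% of the wild-type mean. The SHMT values rest on few reads, 7 to 21 counts per library in the 0–1 hr collection and 5 to 21 in the 1.5–2.5 hr collection.

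bt, the gene next to ey in the Release 6 gene order and on the same strand, had a like pattern. Its level was 0.333, 0.318 and 0.464 CPM in SHMT, against 3.98, 2.84 and 3.63 CPM in wild type in the 0–1 hr collection. In the 1.5–2.5 hr libraries bt stood at 0.367, 0.286 and 0.509 CPM in SHMT, against 2.36, 3.41 and 2.79 CPM in wild type. The 6 SHMT values lay within a narrow low band at both labels, from 7 to 16 counts per library, and none came near the wild-type values. The log2 differences were −3.23 (SE 0.29) and −2.86 (SE 0.27).

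CG11093 was the member with the most reads, and the only one to reach the count minimum, a mean of 50 in a group, in both genotypes. Its level was 11.9, 8.39 and 7.16 CPM in SHMT, against 54.6, 54.9 and 41.6 CPM in wild type in the 0–1 hr collection. In the 1.5–2.5 hr libraries CG11093 stood at 3.84, 5.63 and 5.22 CPM in SHMT, against 20.6, 26.1 and 17.3 CPM in wild type. SHMT was below wild type at each label without overlap, and both genotypes were lower in the 1.5–2.5 hr collection. The log2 differences were −2.46 (SE 0.22) and −2.12 (SE 0.22), the second being the closest to the 4-fold line among the members. That value moved inside the line, to −1.95 and −1.98, when replicate 2 of the wild-type or replicate 1 of the SHMT 1.5–2.5 hr libraries was left out.

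CG31999 was the member whose wild-type replicates differed most relative to their mean. Its level was 0.571, 0.590 and 0.258 CPM in SHMT, against 4.10, 1.78 and 1.49 CPM in wild type in the 0–1 hr collection. The 1.5–2.5 hr libraries had CG31999 at 0.0408, 0.223 and 0.0954 CPM in SHMT, or 1, 7 and 3 counts, against 1.98, 1.99 and 0.434 CPM in wild type. Groups did not overlap at either label, but within wild type replicate 1 stood far above the others in the 0–1 hr collection and replicate 3 far below them in the 1.5–2.5 hr collection. The log2 differences were −2.38 (SE 0.64) and −3.51 (SE 0.75). Without replicate 1 of wild type in the 0–1 hr collection, the highest library and a library with over 11% of its reads outside genes, the first was −1.77. The second was −4.28 without replicate 2 of SHMT. CG31999 passed the count minimum through wild type only, with 170 and 168 counts over the 3 wild-type libraries of the 0–1 hr and of the 1.5–2.5 hr collection.

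CG32017 ran the other way. Its level was 7.62, 7.03 and 9.01 CPM in SHMT, against 0.531, 0.335 and 0.298 CPM in wild type in the 0–1 hr collection. The 1.5–2.5 hr libraries had CG32017 at 3.22, 6.42 and 3.94 CPM in SHMT, against 0.0824, 0.199 and 0.163 CPM in wild type. Its wild-type libraries held 3 to 14 counts each and its SHMT libraries 79 to 202. The log2 differences were 4.29 (SE 0.35) and 4.89 (SE 0.37), which ranked 14 and 20 from the top among the 6884 genes tested.

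All 5 genes passed the count minimum, ey, bt and CG31999 only through the wild-type groups and CG32017 only through the SHMT groups, so that a difference in these 4 was partly set by the minimum. A genotype call was an adjusted p under 0.05 in edgeR's quasi-likelihood test with over 4-fold, and it took 1.38% of the 6884 genes as lower and 2.7% as higher in SHMT in the 0–1 hr collection, and 0.523% and 0.654% in the 1.5–2.5 hr collection. In the same direction at both labels it took 0.291% of genes as lower and 0.392% as higher (2.31 and 2.08% by the adjusted p alone), and with 4 of the members as lower and 1 as higher this count was fixed by the choice. Groups did not overlap in 27.3% of genes with SHMT lower and 32.7% with SHMT higher in the 0–1 hr collection, in 22.3 and 14.5% in the 1.5–2.5 hr collection, and in 6.8 and 6.9% in both. Over 12 settings that left out 1 library each, all 120 genotype differences of the members kept their sign, and 3 of them came under 4-fold, the 2 of CG11093 and 1 of CG31999 given above. Just outside the choice on chromosome 4, sphinx stood at −1.82 (SE 0.25) in the 0–1 hr collection and −2.65 (SE 0.27) in the 1.5–2.5 hr collection, and CG2052 (dati) at 1.41 (SE 0.21) and 4.07 (SE 0.20). Without replicate 1 of SHMT in the 0–1 hr collection the first value of sphinx was −2.02, past 4-fold.

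Whether a member's genotype difference changed with the label is given without a test, since both contrasts chose it. The difference of the genotype effects, in the 1.5–2.5 hr collection minus in the 0–1 hr collection, was −0.20 (SE 0.49) for ey, 0.36 (SE 0.42) for bt, 0.34 (SE 0.31) for CG11093, −1.13 (SE 1.04) for CG31999 and 0.60 (SE 0.54) for CG32017 on the log2 scale. The values of ey and bt were smaller than their own SE, and those of the other members slightly larger.

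The stage labels were compared as the mean of both genotypes, a contrast that did not choose the members, and here they were tested. Precision differed between genotypes, as in CG32017 (SE of the label difference 0.27 in SHMT and 0.48 in wild type). Also, ey, bt, CG31999 and CG32017 passed the count minimum through a single genotype. The test is therefore not fully independent of the choice. Of the 5 members, 4 were called lower in the 1.5–2.5 hr than in the 0–1 hr collection and none higher, where 47.1% of all genes tested were called lower and 45.8% higher. CG11093 had a log2 difference of −1.07 (SE 0.15, adjusted p = 2.7e-05), CG32017 of −1.09 (SE 0.28, adjusted p = 0.00242) and CG31999 of −1.33 (SE 0.52, adjusted p = 0.0287), all by edgeR with Benjamini-Hochberg adjustment over 6884 genes. ey had −0.62 (SE 0.25, adjusted p = 0.0329), and bt had −0.11 (SE 0.21, adjusted p = 0.622), which did not pass. The calls of CG11093 and CG32017 held with any library left out, with adjusted p up to 0.000158 and 0.0213. That of ey was lost in 8 of 12 such settings (adjusted p up to 0.111) and that of CG31999 in 5 of 12 (up to 0.0719), and with both libraries above 11% of reads outside genes left out ey had an adjusted p of 0.219 and CG31999 of 0.171.

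Within genotypes the label difference was given as a value only. In SHMT it was −0.72 (SE 0.41) for ey, 0.07 (SE 0.35) for bt, −0.89 (SE 0.23) for CG11093, −1.90 (SE 0.90) for CG31999 and −0.79 (SE 0.27) for CG32017. In wild type it was −0.52 (SE 0.29) for ey, −0.29 (SE 0.22) for bt, −1.24 (SE 0.21) for CG11093, −0.76 (SE 0.53) for CG31999 and −1.39 (SE 0.48) for CG32017. CG11093 and CG32017 did not overlap between labels in either genotype. ey did not overlap between labels in wild type and CG31999 did not in SHMT, while bt overlapped in both. The share of all genes without overlap between labels was not taken, so this is not read as a trait of the members. By the test on both genotypes, 47.1% of all genes were called lower and 45.8% higher between labels.

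**Figure D2:**
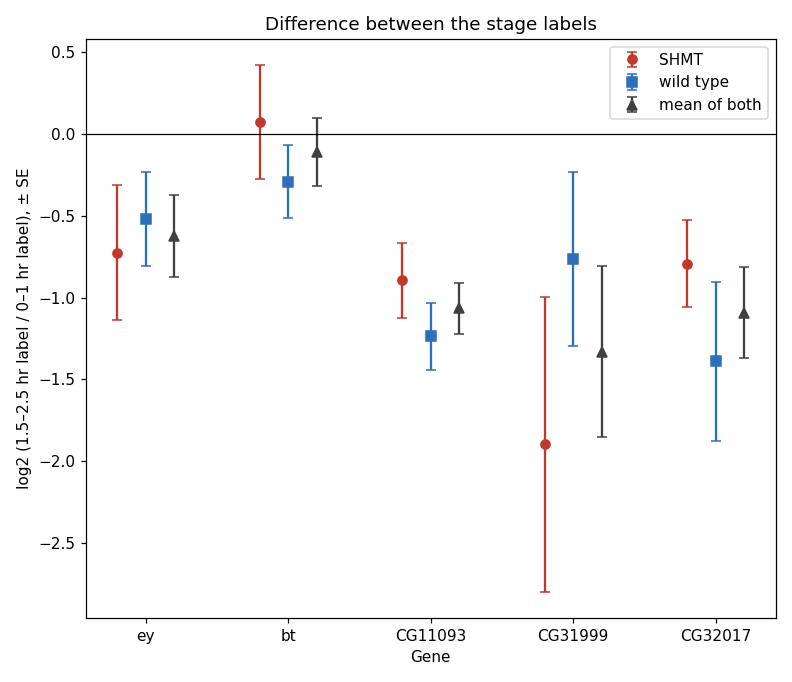
Log2 difference of the 1.5–2.5 hr collection from the 0–1 hr collection for each gene, in SHMT, in wild type and as the mean of both, with bars of 1 SE. The means lie between −1.33 for CG31999 and −0.11 for bt, and that of bt lies within 1 SE of 0.

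Lower levels in the 1.5–2.5 hr collection were common on chromosome 4. Of its 59 genes tested, 42 (71.2%) were lower at that label and 11 were higher, with a median log2 difference of −0.74, against −0.05 over all genes tested. Without the members, 38 of 54 were lower, with a median of −0.73. With the members' reads included, chromosome 4 held 1.28 to 1.50% of the counts in SHMT and 1.46 to 1.60% in wild type in the 1.5–2.5 hr collection, and 1.81 to 2.16% in SHMT and 1.62 to 1.95% in wild type in the 0–1 hr collection.

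The genotype difference of the members was not shared by most of the chromosome. Among the other 54 genes tested, SHMT was higher in 12 and lower in 9 in the 0–1 hr collection (adjusted p under 0.05, any fold), or 22.2 and 16.7%, against 32.9 and 25.8% of all genes. For the 1.5–2.5 hr collection the counts were 1 and 5, or 1.85 and 9.26%, against 2.85 and 4.15% of all genes. Their median log2 differences were −0.04 and −0.15, against 0.02 and −0.02 over all genes. RpS3A, gw and ATPsyn-beta, the 3 other genes of the chromosome with the highest mean CPM, had differences between −0.29 and 0.11.

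Past the 4-fold call at 1 label stood Mitf, a transcription factor, CG2052 (dati), a zinc-finger factor, sphinx, a noncoding RNA, and Rfabg (apolpp), an apolipophorin. Mitf stood at 77.4, 92.9 and 36.1 CPM in SHMT, against 6.75, 7.47 and 7.21 CPM in wild type in the 0–1 hr collection (log2 3.27, SE 0.28), with 0.48 (SE 0.25) in the 1.5–2.5 hr collection. Rfabg in the 0–1 hr collection had −2.94 (SE 0.88) with overlapping groups, 1.43, 0.318 and 0.206 CPM in SHMT against 11.4, 2.62 and 0.894 CPM in wild type, and without replicate 2 of SHMT it did not pass (adjusted p = 0.0505 by edgeR). Of the 11 chromosome 4 genes with an adjusted p under 0.05 at both labels, 6 were not members. Those 6, the last 4 of them named after their values were seen, were CG2052, sphinx, mav (−1.28 and −1.19), fd102C (−1.84 and −1.47), cals (−0.81 and −0.96) and CG32850, which went in opposite directions (0.65 and −1.05). The members were among the 11 by the choice. Without them, 4 of 54 genes (7.41%) were lower at both labels and 1 (1.85%) was higher at both. Over all genes tested the shares were 2.31 and 2.08%.

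**Figure D3:**
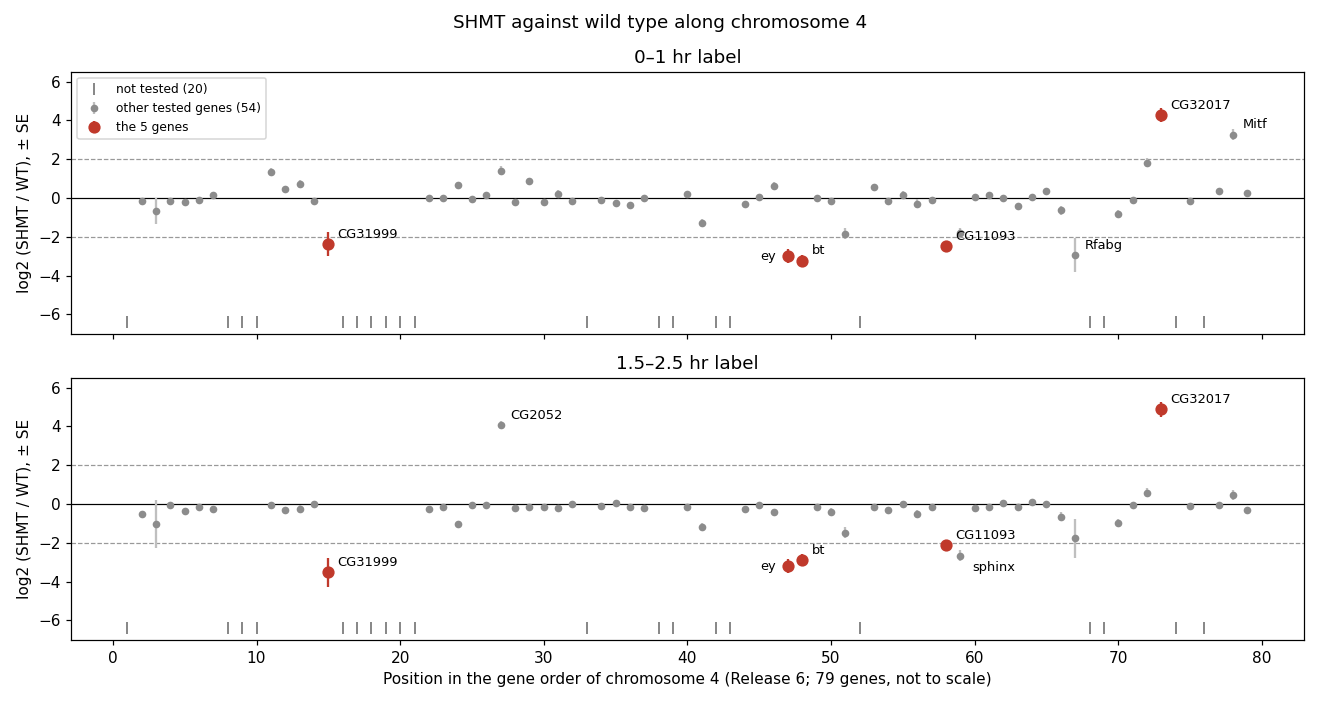
Log2 difference of SHMT from wild type (± SE) for the 59 genes tested on chromosome 4, by their place among 79 genes in the Release 6 gene order, in the 0–1 hr collection (upper panel) and the 1.5–2.5 hr collection (lower panel). Ticks mark 20 genes not tested and dashed lines 4-fold. The members stand apart from most neighbours at places 15, 47, 48, 58 and 73, with CG32017 the highest at both labels.

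In the Release 6 gene order ey and bt are places 47 and 48. The genes around this pair were within 0.65 of 0 on the log2 scale at both labels, namely Slip1 (0.05 in the 0–1 hr and −0.04 in the 1.5–2.5 hr collection), CG11360 (0.63 and −0.40), MED26 (0.01 and −0.16) and Sox102F (−0.17 and −0.39). Around CG31999, at place 15, CG31998 had 0.72 and −0.25 and Crk had −0.16 and 0.02. yellow-h and CG1674 on its other side had too few reads to be tested. CG31999 thus differed from both of its tested neighbours, while ey and bt form a neighbouring pair.

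CG11093 and CG32017 each share exons with a gene on the opposite strand in the Release 6 annotation, while the counting was done on dm3. The strand setting used in counting is unknown here. How reads of the shared parts were assigned to the overlapping partners, or left out as ambiguous, therefore cannot be told. sphinx, whose exons overlap those of CG11093, stood at 0.905, 0.726 and 0.515 CPM in SHMT, against 2.77, 2.40 and 2.43 CPM in wild type in the 0–1 hr collection. In the 1.5–2.5 hr libraries sphinx stood at 0.245, 0.223 and 0.254 CPM in SHMT, against 1.62, 1.77 and 1.22 CPM in wild type. It was low in the same groups as CG11093, with the lowest values of both genes in SHMT in the 1.5–2.5 hr collection. The other neighbours of CG11093 differed by less, with −0.08 and −0.13 for CG32016, −0.30 and −0.50 for mGluRA, and 0.05 and −0.22 for toy. mGluRA was at 70.7% of the wild-type mean in the 1.5–2.5 hr collection, without overlap, but did not pass (adjusted p = 0.245 by edgeR).

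CG11155, whose exons overlap those of CG32017, stood at 19.0, 12.4 and 12.1 CPM in SHMT, against 5.27, 4.02 and 2.93 CPM in wild type in the 0–1 hr collection (log2 1.82, SE 0.23). Its level in the 1.5–2.5 hr libraries was 7.96, 8.30 and 7.79 CPM in SHMT, against 5.24, 6.17 and 4.61 CPM in wild type (log2 0.58, SE 0.22). It was higher in SHMT without overlap at both labels, as CG32017 was, but by less, and its second difference did not pass (adjusted p = 0.171 by edgeR). Kif3C, whose span CG32017 also overlaps, held 0 to 6 counts per library and was not tested. Arf102F and pho, the next genes on either side, had −0.11 and −0.05, and −0.15 and −0.08.

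**Figure D4:**
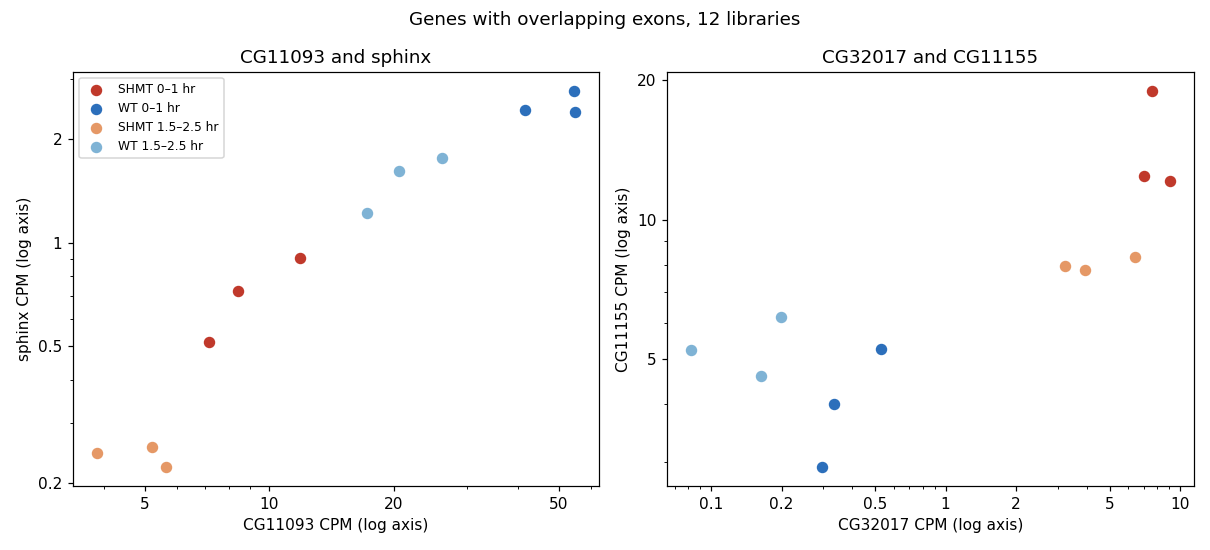
CPM of CG11093 against sphinx (left) and of CG32017 against CG11155 (right) in each of the 12 libraries, on log axes, by genotype and stage label. Both genes of the left pair are lowest in SHMT in the 1.5–2.5 hr collection, and CG32017 parts the genotypes by a wider gap than CG11155.

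Relatives and partners of the members were read through lists, where passing means an adjusted p under 0.05 at any fold. In the 0–1 hr collection 32.9% of all genes passed as higher and 25.8% as lower in SHMT, with a median log2 difference of 0.02, and in the 1.5–2.5 hr collection 2.85 and 4.15%, with a median of −0.02. Of 8 genes of retinal determination, 4 were tested, and besides ey only hth (homothorax) passed in the 0–1 hr collection (log2 −1.99, adjusted p = 0.0022 by edgeR) and none in the 1.5–2.5 hr collection. toy, the other Pax6 gene, stood at 2.95, 3.13 and 2.94 CPM in SHMT, against 3.04, 2.79 and 2.88 CPM in wild type in the 0–1 hr collection, and at 0.857, 1.21 and 1.24 CPM in SHMT against 1.35, 1.19 and 1.36 CPM in wild type in the 1.5–2.5 hr collection. Its genotype groups overlapped at both labels, where those of ey did not. Of 10 Pax genes 3 were tested, and besides ey only prd, a pair-rule gene, passed in the 0–1 hr collection (−1.46). Of the 15 early zygotic RNAs, all tested, 7 were lower and 0 higher in SHMT in the 0–1 hr collection (median −1.07), and in the 1.5–2.5 hr collection their median was −0.40 and the lowest adjusted p 0.171 by edgeR, for eve. The part of that shift in the values of ey, hth and prd was not tested. With ey counted in, the tested genes of the first list had medians of −1.44 and −0.65 and those of the second −1.46 and −1.09. Photoreceptor markers were low, the 8 of them summing to 0.499 to 0.670 CPM in SHMT and 1.34 to 2.09 CPM in wild type in the 0–1 hr collection, and to 0.191 to 0.776 CPM in SHMT and 0.163 to 0.199 CPM in wild type in the 1.5–2.5 hr collection.

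Of 20 genes for titin-like and sarcomere proteins 4 were tested, and besides bt, Mlc2 (a myosin light chain, −5.14) and Mlp84B (a muscle LIM protein, −1.49) were lower in SHMT in the 0–1 hr collection and none in the 1.5–2.5 hr collection. The 4 genes, bt included, had medians of −2.36 and −0.48. Mlc2 moved with bt in the 0–1 hr collection, at 0.0476, 0.0907 and 0.103 CPM in SHMT against 3.26, 3.23 and 2.43 CPM in wild type. Its groups overlapped in the 1.5–2.5 hr collection, at 1.35, 0.127 and 0.700 CPM in SHMT against 0.769, 1.34 and 1.17 CPM in wild type. The summed level of 10 muscle markers, bt not among them, was 0.333 to 1.41 CPM in SHMT and 4.03 to 5.77 CPM in wild type in the 0–1 hr collection, and 0.636 to 7.43 CPM in SHMT and 1.45 to 2.19 CPM in wild type in the 1.5–2.5 hr collection. Of these markers 3 had no count in any SHMT library and 1 none in any wild-type library in the 0–1 hr collection, and Mhc, the muscle myosin heavy chain, held 1 to 5 counts per SHMT library and 10 to 22 per wild-type library. Only Mlc2 of the 10 was tested, and it held more of the wild-type sum in the 0–1 hr collection than any other marker. Act57B, a muscle actin, had a mean of 0.355 CPM in SHMT and 0.152 CPM in wild type there (23 and 10 counts in all, groups overlapping), and sls, which encodes the titin Sallimus, held 3 counts in each genotype. The part of these markers in the level of bt was not tested.

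Nervous system markers, 7 of 8 of them counted, summed to 1.14 to 1.59 CPM in SHMT and 1.28 to 3.91 CPM in wild type in the 0–1 hr collection, and to 1.37 to 2.04 CPM in SHMT and 1.84 to 2.31 CPM in wild type in the 1.5–2.5 hr collection. The 10 chorion and vitelline membrane genes, RNAs of the ovary's follicle cells, summed to at most 0.531 CPM in every library but replicate 2 of wild type in the 0–1 hr collection. There they reached 4.68 CPM, of which Cp15 alone gave 4.63 CPM (83 counts). Their sums in the 1.5–2.5 hr collection were 0.159 to 0.531 CPM in SHMT and 0.0271 to 0.0746 CPM in wild type, without overlap. The nervous system sums overlapped between genotypes at both labels and the chorion sums only in the 0–1 hr collection. Their part in the levels of the members was not tested.

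Of 19 genes of BMP and activin signalling counted, 17 were tested. SHMT had 3 of them higher and 6 lower, CG11093 among the latter, in the 0–1 hr collection. In the 1.5–2.5 hr collection none was higher and 2 were lower, CG11093 and mav, a TGF-β ligand that also lies on chromosome 4. CG11093 was chosen on these contrasts, so besides this member only mav passed in the 1.5–2.5 hr collection. The 17 genes, CG11093 included, had medians of −0.21 and −0.15. Smox, the Smad of activin signalling, was higher in the 0–1 hr collection (log2 1.53), and Mad (−0.46), the Smad of the BMP branch, and Med (−0.91), the co-Smad, were lower. Snoo, the other Ski and Sno family gene of the list, had 0.58 (adjusted p = 0.0688) and −0.10 (adjusted p = 0.842), both by edgeR.

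All 12 proteins of chromosome 4 and of heterochromatin on the list were tested. Among them Pof (−0.76), egg, a histone H3 lysine 9 methyltransferase of chromosome 4 (−0.69), Hmr (−0.73) and HP1b (−0.19) were lower in SHMT and G9a (0.36) was higher in the 0–1 hr collection, and in the 1.5–2.5 hr collection none passed in either direction. The medians of the 12 were −0.14 and 0.02. Pof stood at 11.5, 12.2 and 11.8 CPM in SHMT, against 23.8, 16.5 and 19.6 CPM in wild type in the 0–1 hr collection. Its level in the 1.5–2.5 hr libraries was 59.9, 55.2 and 54.3 CPM in SHMT, against 48.7, 57.2 and 53.8 CPM in wild type.

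The genes whose levels were most like each member's over the 12 libraries were sought over all 6884 genes tested, of which 59 (0.857%) lie on chromosome 4. Of the 15 found, 3 of them for each member, 3 lay on chromosome 4, all of them found for CG31999. Among these, CG11093 is itself a member and sphinx shares exons with it. The genotype differences that chose the members also enter r, so this count is a description and not a test. Likeness was Pearson's r of log2 CPM, over libraries that fall into 4 groups, which r does not take apart. The 3 most like ey were Ir21a (r = 0.964), CG10962 (0.961) and scaf (0.959). Those most like bt were mbl (0.989), CG3038 (0.978) and CG17928 (0.976), and those most like CG11093 were CG30440 (0.984), Jheh1 (0.976) and pyd3 (0.970). For CG31999 all 3 lay on chromosome 4, sphinx (0.935), mav (0.929) and CG11093 (0.923). For CG32017 they were CG10208 (0.980), GstE9 (0.974) and CG13532 (0.970).

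The size of the difference in these look-alikes varied widely. CG3038 stood at 1.05, 0.318 and 0.927 CPM in SHMT, against 96.4, 101 and 99.7 CPM in wild type in the 0–1 hr collection, a log2 difference of −7.03 (SE 0.29) beside −3.23 for bt. mbl (muscleblind), a splicing regulator, had −2.09 (SE 0.19) and −1.90 (SE 0.19). CG13532 stood at 12.9, 17.0 and 16.3 CPM in SHMT and at 0.0379, 0.112 and 0.0497 CPM, 1 or 2 counts, in wild type in the 0–1 hr collection, where CG32017 differed by 4.29.

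In the BDGP6 annotation each member spans several annotated transposable elements, 6 in CG31999, 7 in ey, 9 in bt and 11 in CG11093 and in CG32017, against a median of 3 and at most 17 in the other 74 genes of the chromosome, 14 of which span none. Among the members an element overlaps an exon in CG31999 and in CG11093 only. Such overlap also occurs in other genes of the chromosome, with 6 elements in pan and in Thd1, and its share was not taken. The lengths of the genes were not taken into account, and the difference was not tested.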

How the data were processed

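The deposited values are whole-number counts of reads per gene, with 1 table for each library. The authors' processing notes name CASAVA 1.8.2, Bowtie2 2.1.0 and HTSeq as tools and dm3 as the build, and the strand setting of the counting is not given in the sources used here. Lines that name no gene (5 per table) were left out of every total and test. Reads outside genes were 4.57 to 11.7% and ambiguous reads 1.33 to 1.53% of a library.

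Names, chromosome arms and gene order came from Release 6 and BDGP6 tables. Of 14161 symbols 10669 matched as current and 3235 by a synonym, and 257 did not match. No coordinates or sequences are given, since no dm3 genome was used here. Chromosome 4 had 81 rows for 79 genes, 59 of them tested.

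A gene was tested if its mean reached 50 counts in any of the 4 groups, which kept 6884 genes. The quasi-likelihood test of edgeR 4.0.16 (limma 3.58.1, R 4.3.3) was run on all 12 libraries with 1 mean per group and TMM scaling, with Benjamini-Hochberg adjustment across the genes tested. Genotype calls needed over 4-fold beside an adjusted p under 0.05, and a call between collections an adjusted p under 0.05. The fit was also run on simulated counts with the same spread for all genes, and no outcome of that run is given or used here. Exact permutation of 3 against 3 libraries cannot give p below 0.1, so none is given.

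The members and the gene lists were chosen with earlier results of these data known. Named besides the members are, for each, the 3 genes most like it (r of log2 CPM) and the 2 nearest on each side, then other chromosome 4 genes and list genes called in either genotype contrast, and the 3 other chromosome 4 genes highest in CPM. Other names were chosen after their values were seen. Scaling was also done by relative log expression (RLE) or with library sizes alone, the test with DESeq2 1.42.0, and the count minimum was dropped to 1 count, set by filterByExpr or raised to 200. Further alternatives were an adjusted p under 0.01, a prior count of 2 in place of 0.125, a fit of only the groups being compared, a block for the replicate number, each library left out, the libraries above 11% of reads outside genes left out, and exchanged stage labels. matplotlib 3.10.9 (Python 3.11.15) drew the figures.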

Additional observations from a re-analysis of the deposited data

Results flagged for a closer look

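None of the 5 members was put to a test of whether its genotype difference changed between the labels, because that test shares the contrasts that chose them. Of the 54 other chromosome 4 genes tested, 12 (22.2%) had a genotype difference that changed between the labels, with an adjusted p under 0.05 for edgeR's interaction term (1.5–2.5 hr minus 0–1 hr, log2), against 38.5% of all 6884 genes. Over all genes the term was negative in 1810 of the 2649 with such an adjusted p. On chromosome 4 it was positive for CG2052 (2.66) and negative for the other 11. Among them it was −2.79 for Mitf, −1.70 for CG32850, −1.39 for CG2219, −1.24 for CG11155, −1.03 for CG11360, −1.01 for CaMKI and −0.98 for CG31998. For CG2316 it was −0.80, for CG11148 −0.72, for Dyrk3 −0.56 and for CG17471 −0.41. CG2052 and Mitf were named in the report because they were called at 1 label only, and CG32850 after its values were seen, so their own values are a description. The adjusted p of the other 9 ran from 0.000507 to 0.0254. CG11155 overlaps CG32017, whose own value was 0.60 (SE 0.54). CG11360 neighbours ey, whose value was −0.20 (SE 0.49), and CG31998 lies near CG31999, whose value was −1.13 (SE 1.04).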

How the results depend on the processing

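The genotype differences of the members kept their sign in all 92 values from the 10 other settings, as in the 120 with 1 library left out. Of the 92, 1 came under 4-fold, CG31999 in the 0–1 hr collection at −1.83 without the 2 libraries above 11% of reads outside genes. CG32017 in the 0–1 hr collection was 4.72 without the 2 libraries above 11% of reads outside genes, and ranged from 4.12 to 4.62 with 1 library left out. With the stage labels exchanged, the label differences were 0.62 for ey, 1.07 for CG11093, 1.33 for CG31999 and 1.09 for CG32017. ey lost its call between labels with library sizes alone (−0.23), with no count minimum (−0.45), with filterByExpr (−0.52), with the replicate number as a block (−0.62, adjusted p = 0.0509 by edgeR) and without the libraries above 11% outside genes (−0.39). CG31999 lost its call with library sizes alone (−0.94) and without those libraries (−0.87). With 1 library left out, ey ranged from −0.80 to −0.47 and CG31999 from −1.72 to −1.03. ey kept its call only without replicate 1 of wild type or replicate 3 of SHMT in the 0–1 hr collection, or replicate 2 of wild type or replicate 3 of SHMT in the 1.5–2.5 hr collection. CG31999 lost its call without replicate 1 of wild type or replicate 1 or 2 of SHMT in the 0–1 hr collection, or replicate 1 or 3 of SHMT in the 1.5–2.5 hr collection. Library sizes alone moved the median label difference of all genes to 0.35, from −0.05 with TMM, and bt to 0.29; they moved the median genotype difference in the 0–1 hr collection to 0.25, from 0.02.

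Whether the replicate numbers pair the samples was not settled (r of same-numbered deviations −0.21 to 0.55, 3 of 6 SHMT libraries closest to their own number). Between genotypes in the 1.5–2.5 hr collection, r was 0.51 for replicates 2 and 0.55 for replicates 3, but −0.21 for replicates 1. The block left 276 and 78 genotype calls over all genes, against 281 and 81. Calls in the 0–1 hr collection were 642 with no count minimum. Those of the 1.5–2.5 hr collection were 203 with no minimum, 153 with filterByExpr and 36 with a minimum of 200. The causes were not tested. With 1 to 21 counts per library, the low groups of ey, bt, CG31999 and CG32017 limit what can be said of changes within them.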
